A study of Mus musculus with 7 samples.

Results

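The genes described here encode the subunits of the oxidative phosphorylation machinery of the mitochondrion. They were chosen by name alone, as the listed genes whose symbol is that of a subunit of complex I (Nduf), complex II (Sdh), complex III (Uqcr, Cyc1), complex IV (Cox4 to Cox8) or complex V (Atp5), or of a protein encoded by mitochondrial DNA (mt-Nd, mt-Cytb, mt-Co, mt-Atp), with pseudogene symbols dropped. The rule found 96 of 14732 listed genes, of which 83 are nuclear and 13 mitochondrial. Of the 83, Cox7a2l and Ndufa4l2 match by name but are not subunits, and they are counted among the nuclear members but in no complex. Of 102 annotated genes that match the rule, 6 were not listed: Cox6c2, Cox7b2, Cox8c, Ndufa11b, Ndufs6b and a further gene annotated as Atp5o.

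The study sequenced polyA RNA of the outflow tract (OFT), the tube between the ventricles of the embryonic heart and its arteries, at embryonic day 11.5. There were 3 control pools, labelled wild type and numbered replicates 3, 4 and 5, and 4 Gata6STOP/+ pools, numbered replicates 1, 3, 4 and 5. The text of the series gives 3 pools for each genotype, whereas the labels list 4 for the mutant, and all 7 were used. Each pool held 4 pairs of OFT, so that no value belongs to a single embryo.

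Gata6STOP/+ embryos carry, in every cell, a heterozygous Gata6 allele with a frameshift and a premature stop in exon 2. The allele was made by CRISPR-Cas9 in C57BL/6 zygotes and descends from a selected founder that was backcrossed to C57BL/6, so the mutants are of a single line. Reads on the listed genes numbered 20930875, 29035529 and 17783655 in control replicates 3, 4 and 5. They numbered 28319373, 27519856, 24736761 and 34467710 in Gata6STOP/+ replicates 1, 3, 4 and 5. Values per pool follow this order of replicates throughout. Levels are CPM, the reads of a gene scaled to the size of its library, on the authors' TMM scale, which adjusts library sizes so that most genes keep the same level. Differences are Gata6STOP/+ against control on log2(CPM + 0.5).

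Oxidative phosphorylation passes electrons from NADH and succinate through complexes I to IV to oxygen, and complex V, the ATP synthase, uses the proton gradient so built up to make ATP. Most subunits are encoded in the nucleus and imported, while a small core of complexes I, III, IV and V is encoded by mitochondrial DNA and translated inside the organelle. The beating myocardium of the embryonic heart comes to depend on this machinery as it matures, and cardiac and skeletal muscle use their own isoforms of several complex IV subunits.

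Gata6, the zinc finger transcription factor that the allele disrupts (ENSMUSG00000005836), was read first as a check of the labels. It stood at 315, 257 and 286 CPM in control pools, and at 268, 203, 219 and 217 CPM in Gata6STOP/+ pools. Replicates 3, 4 and 5 of the mutant lay below every control pool, and replicate 1 lay between control replicates 4 and 5. The mean was 286 ± 28.9 CPM (SD, n = 3) in control and 227 ± 28.7 CPM (SD, n = 4) in Gata6STOP/+ pools, a difference of -20.8%. The log2 fold change was -0.34 (SE 0.10, adjusted P-value = 0.389 by limma, exact two-sided permutation P = 0.0857 over 35 ways to part the pools). The smallest P that this permutation test can give for 3 against 4 pools is 0.0571. Without Gata6STOP/+ replicate 1 the log2 fold change of Gata6 was -0.42, and without control replicate 3 it was -0.27.

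Most nuclear and most mitochondrially encoded members lay on opposite sides of 0. Of the 83 nuclear members, 80 had a lower mean log2 level in Gata6STOP/+ than in control pools, with a median log2 fold change of -0.13. Of the 13 mitochondrially encoded members, 11 had a higher mean, with a median log2 fold change of 0.18. Over all listed genes 7393, or 50.2%, were lower and the median log2 fold change was -0.000732. Without Gata6STOP/+ replicate 1, 67 of the 83 nuclear members were lower, with a median of -0.06, against 49.8% of all genes. Of the 13 mitochondrially encoded members 11 were then higher, with a median of 0.17. In bulk samples such as these, fewer cells of a type and less RNA per cell cannot be told apart.

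No member passed the test. With limma, 0 of 14732 genes (0%) had an adjusted P under 0.05, and the smallest adjusted P-value = 0.456 among members was that of Atp5k. The unadjusted P was under 0.05 for 1187 genes. The edgeR likelihood ratio test called 105 genes (0.713%), the edgeR quasi-likelihood test 0 (0%) and DESeq2 88 of the 14729 it tested (0.597%), with no member among any of these calls.

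At an unadjusted P under 0.05, limma found 16 members lower, all nuclear, against 572 of all genes (3.88%), and 1 member higher, mt-Nd3, against 615 of all genes (4.17%). In 13 members, all nuclear, every Gata6STOP/+ pool lay below every control pool, against 613 of all genes (4.16%), and in 0 members did every Gata6STOP/+ pool lie above, against 635 of all genes (4.31%). The count of lower members turned on single pools. It was 6 without Gata6STOP/+ replicate 1, where all genes gave 542 (3.68%), and 6 again, against 430 (2.92%), when control replicate 3 was left out. It was 7, against 409 (2.78%), without Gata6STOP/+ replicate 5 and 10, against 485 (3.29%), when control replicate 5 was left out. With same-numbered pools joined in blocks, 3 of the 96 members were lower by limma, against 454 of all genes (3.08%), and 3 by edgeR quasi-likelihood, against 449 (3.05%). In these block fits, though not in the fits without a pool, the share of members was near that of all genes. For the mutant pools closest to control the count went up instead. Leaving out Gata6STOP/+ replicate 3 gave 35, against 613 of all genes (4.16%), and leaving out Gata6STOP/+ replicate 4 gave 27, against 558 (3.79%). The count of higher members was 1 without Gata6STOP/+ replicate 1, where all genes gave 585 (3.97%), 4 without Gata6STOP/+ replicate 5, against 460 (3.12%), and 9 when control replicate 4 was left out, against 662 (4.49%). With all pools it was 3 by DESeq2, against 564 (3.83%), and 2 by the edgeR likelihood ratio test, against 576 (3.91%).

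**Figure D1:**
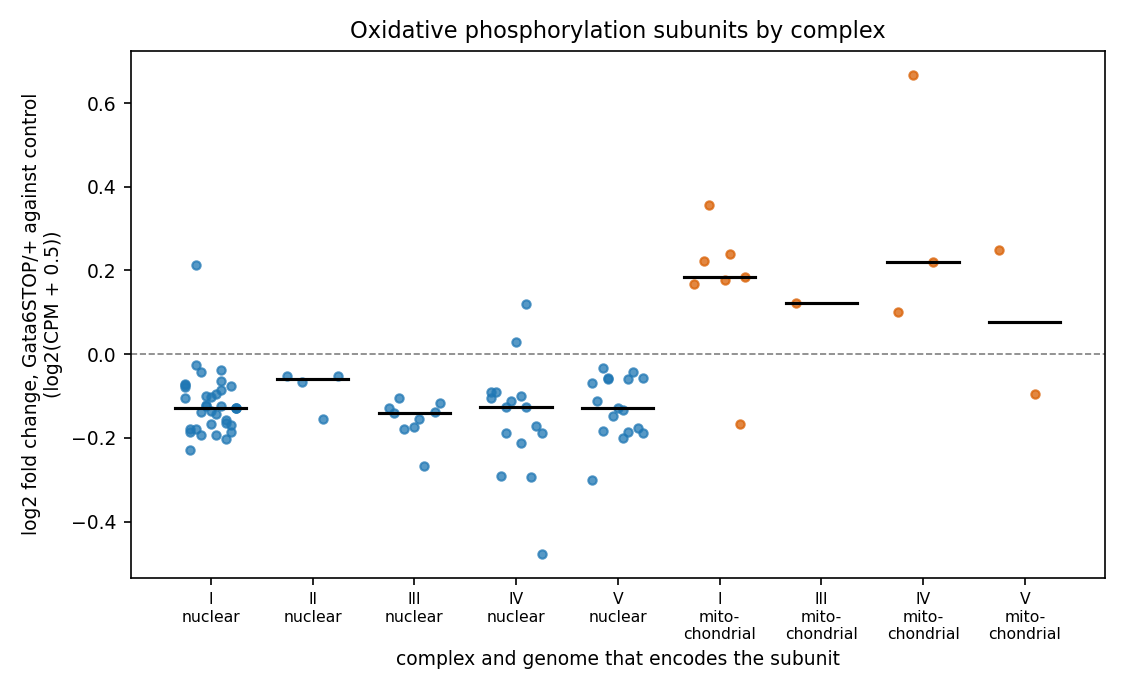
Log2 fold change of each subunit gene, Gata6STOP/+ (4 pools) against control (3 pools), on log2(CPM + 0.5), by complex and by the genome that encodes the gene (dots, single genes; bars, medians). Nuclear medians run from -0.14 in complex III to -0.06 in complex II, and mitochondrial medians from 0.08 in complex V to 0.22 in complex IV. Without Gata6STOP/+ replicate 1 the median is 0.00995 in complex II and 0.015 in mitochondrial complex V. When control replicate 3 is left out it is -0.11 in mitochondrial complex V and 0.11 in mitochondrial complex IV, and mt-Co3, the highest dot at 0.67, is at -0.52 when control replicate 5 is.

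The summed level of the 83 nuclear members was 14014, 14690 and 13861 CPM in control pools, and 11528, 14486, 13693 and 13054 CPM in Gata6STOP/+ pools. Replicate 1 was the lowest of all pools, while replicate 3 lay within the control range and replicates 4 and 5 below it. The means were 14188 ± 441 CPM (SD, n = 3) and 13190 ± 1253 CPM (SD, n = 4), a difference of -7.03%, which is smaller than the SD of the mutant pools. Without Gata6STOP/+ replicate 1 the difference was -3.13%. That pool held the lowest of the 7 levels for 74 of the 83 nuclear members and the highest for 0, and without it 67 of the 83 were lower and their median log2 fold change was -0.06.

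Mitochondrially encoded members summed to 22900, 28593 and 23742 CPM in control pools, and to 28325, 29093, 27289 and 25883 CPM in Gata6STOP/+ pools. Control replicate 4 lay among the mutant pools and the other controls below all of them. The means were 25078 ± 3073 CPM (SD, n = 3) and 27647 ± 1389 CPM (SD, n = 4), a difference of 10.2% that is smaller than the SD of the control pools. Leaving out Gata6STOP/+ replicate 1 gave 9.35%, while leaving out control replicate 3 gave 5.66% and leaving out control replicate 4 gave 18.6%.

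The ratio of the mitochondrial to the nuclear sum was 1.63, 1.95 and 1.71 in control pools, and 2.46, 2.01, 1.99 and 1.98 in Gata6STOP/+ pools. The groups did not overlap, although the gap between control replicate 4 and the lowest mutant pool was small. The mean ratio was 1.76 ± 0.162 (SD, n = 3) in control and 2.11 ± 0.231 (SD, n = 4) in Gata6STOP/+ pools. No test was made of this ratio, since its members were chosen with results of these data known.

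**Figure D2:**
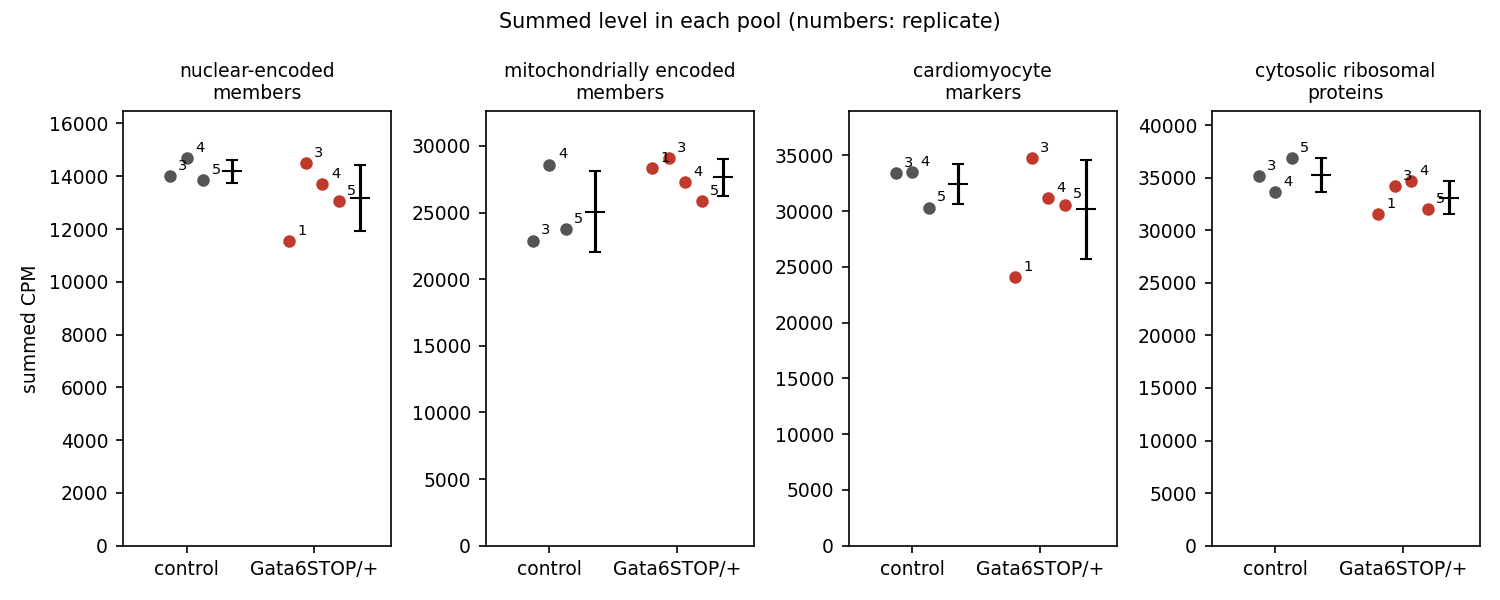
Summed CPM in each pool (dots, with replicate numbers; horizontal and vertical bars, mean and SD) of nuclear-encoded members (Cox7a2l and Ndufa4l2 included), mitochondrially encoded members, cardiomyocyte markers and cytosolic ribosomal proteins, in 3 control and 4 Gata6STOP/+ pools. Gata6STOP/+ replicate 1 is the lowest pool for nuclear-encoded members (11528 CPM), cardiomyocyte markers (24097 CPM) and cytosolic ribosomal proteins (31541 CPM), but not for mitochondrially encoded members (28325 CPM).

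Levels can be set side by side per length of transcript. In control pools the median nuclear member had 130 CPM per kb, from 9.13 for Cox8b to 979 for Atp5b, and the median mitochondrial member had 1111 CPM per kb, from 115 for mt-Nd6 to 6365 for mt-Co1. By complex, the nuclear medians were 87.1 CPM per kb for complex I, 132 for complex II, 170 for complex III, 207 for complex IV and 227 for complex V. Levels of genes that share sequence with other loci are uncertain on this scale, as described for mt-Co3 below.

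Complex I takes electrons from NADH through an arm that juts into the matrix and pumps protons through an arm in the membrane. Of its 35 nuclear members, 34 were lower, 7 of them at an unadjusted P under 0.05, against 3.88% of all genes, and in 8 (22.9%) every mutant pool lay below every control pool, against 4.16% of all genes. The median log2 fold change was -0.13. Without Gata6STOP/+ replicate 1 it was -0.06, and 1 member (2.86%) was lower at an unadjusted P under 0.05, which is below the 3.68% of all genes. Ndufs1, the large iron-sulfur subunit of the electron input and among the most abundant nuclear members of the complex, had a log2 fold change of -0.04 (SE 0.08). Ndufs1 changed sign to 0.0050 without Gata6STOP/+ replicate 1 and to 0.02 without control replicate 4.

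Among the complex I members with the smallest P, Ndufa13, an accessory subunit also known as GRIM-19 (chr8:69894180-69902558, minus strand, GRCm38), stood at 92.7, 87.6 and 90.8 CPM in control pools and at 72.2, 80.6, 87.5 and 76.3 CPM in Gata6STOP/+ pools. All mutant pools lay below all control pools, replicate 4 only just. Its log2 fold change was -0.19 (SE 0.07, adjusted P-value = 0.517). Ndufs7 and Ndufs8 carry iron-sulfur clusters that hand electrons on towards the quinone. Ndufs7 stood at 76.7, 66.8 and 65.1 CPM in control and at 50.9, 62.3, 63.4 and 60.8 CPM in Gata6STOP/+ pools. Ndufs8 stood at 57.2, 63.1 and 56.3 CPM in control and at 45.3, 56.0, 51.7 and 51.8 CPM in Gata6STOP/+ pools. In both genes the groups did not overlap, and replicate 1 was the lowest pool. The log2 fold changes were -0.23 (SE 0.09, adjusted P-value = 0.541) for Ndufs7 and -0.20 (SE 0.08, adjusted P-value = 0.543) for Ndufs8.

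The accessory subunits Ndufs5 and Ndufa2 followed. Ndufs5, on the side of the membrane arm that faces the intermembrane space, had a mean of 52.2 ± 0.845 CPM (SD, n = 3) in control and 46.0 ± 3.85 CPM (SD, n = 4) in Gata6STOP/+ pools, with a log2 fold change of -0.19 (SE 0.07, adjusted P-value = 0.554). Its groups did not overlap. Ndufa2, of the matrix arm, had a mean of 60.7 ± 2.72 CPM (SD, n = 3) and 53.6 ± 4.41 CPM (SD, n = 4), with a log2 fold change of -0.18 (SE 0.07, adjusted P-value = 0.579), and only replicate 4 of the mutant, at 59.0 CPM, reached the control range.

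Ndufb4 was the only nuclear member of complex I with a higher mean in Gata6STOP/+ pools. It stood at 10.6, 16.1 and 13.9 CPM in control pools and at 13.5, 19.1, 14.6 and 15.4 CPM in Gata6STOP/+ pools, with a log2 fold change of 0.21 (SE 0.15, adjusted P-value = 0.769), and of 0.05 when control replicate 3 was left out. The groups overlapped widely. A processed pseudogene, Ndufb4c, holds 36.3% of the 60-base stretches of its transcript, 60 bases being the length of a read. With the reads of Ndufb4c added, the levels were 46.3, 52.8 and 50.5 CPM in control and 38.0, 52.4, 45.1 and 44.7 CPM in Gata6STOP/+ pools, and the log2 fold change was -0.15 (SE 0.10). Which of these values is nearer the level of Ndufb4 was not tested.

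Complex II, succinate dehydrogenase, also works in the citric acid cycle and is encoded in the nucleus only. Its 4 genes, Sdha to Sdhd, had a median log2 fold change of -0.06, with 0 lower at an unadjusted P under 0.05 (3.88% of all genes). Sdha, the flavoprotein that oxidises succinate, stood at 357, 390 and 328 CPM in control pools and at 292, 388, 343 and 364 CPM in Gata6STOP/+ pools. Only replicate 1 lay outside the control range. The log2 fold changes of Sdha and of Sdhd, a membrane anchor, were both -0.05 (SE 0.10 and 0.08). Without Gata6STOP/+ replicate 1 they were 0.03 and 0.01 and the median of the complex was 0.00995. Sdhb, the iron-sulfur subunit, stood at 170, 186 and 174 CPM in control pools and at 140, 179, 161 and 156 CPM in Gata6STOP/+ pools, with replicate 3 alone within the control range. Its log2 fold change was -0.15 (SE 0.08), and -0.09 without replicate 1. When control replicate 4 was left out, Sdha was also at 0.01 and the median at -0.01. The median was -0.11 when control replicate 5 was left out, and -0.12 when Gata6STOP/+ replicate 3 was.

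Complex III passes electrons from ubiquinol to cytochrome c. All 9 nuclear members were lower, 2 of them at an unadjusted P under 0.05 (3.88% of all genes), with a median log2 fold change of -0.14, and of -0.08 without Gata6STOP/+ replicate 1, when 1 was lower at that P (3.68% of all genes). Uqcr10, a small membrane subunit (chr11:4701973-4704342, minus strand), stood at 103, 108 and 93.7 CPM in control pools and at 72.5, 91.4, 92.9 and 81.2 CPM in Gata6STOP/+ pools. All mutant pools lay below all controls, replicate 4 only just. Its log2 fold change was -0.27 (SE 0.09, adjusted P-value = 0.466), and -0.20 without replicate 1. Uqcrh, the acidic hinge protein that helps cytochrome c dock, stood at 183, 183 and 189 CPM in control and at 147, 180, 171 and 160 CPM in Gata6STOP/+ pools. Its groups did not overlap either, and its log2 fold change was -0.17 (SE 0.07, adjusted P-value = 0.569). These 2 were the only nuclear members of complex III with groups apart (22.2%), against 4.16% of all genes. The core proteins Uqcrc1 and Uqcrc2, the most abundant nuclear members of the complex, had log2 fold changes of -0.16 (SE 0.09) and -0.10 (SE 0.08). Uqcrc1 was at -0.09 without Gata6STOP/+ replicate 1, and Uqcrc2 ranged from -0.16, when control replicate 3 was left out, to -0.02, when control replicate 4 was.

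Complex IV, cytochrome c oxidase, reduces oxygen to water. Of its 16 nuclear members, counting Ndufa4, 14 were lower, 4 of them at an unadjusted P under 0.05 (3.88% of all genes), with a median log2 fold change of -0.13, and of -0.07 without Gata6STOP/+ replicate 1, when 2 were lower at that P (3.68% of all genes). Cox6a1, the widely expressed form of a regulatory subunit (chr5:115345642-115348981, minus strand), stood at 171, 166 and 158 CPM in control pools and at 124, 158, 149 and 140 CPM in Gata6STOP/+ pools. Replicate 3 of the mutant met the lowest control and the others lay below. Its log2 fold change was -0.21 (SE 0.08, adjusted P-value = 0.525). Cox4i1, the most abundant nuclear subunit of the complex, had a log2 fold change of -0.10 (SE 0.08), and of -0.04 without Gata6STOP/+ replicate 1.

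Cox8b, the form of subunit VIII found in heart and skeletal muscle (chr7:140898945-140900446, minus strand), had the lowest log2 fold change of all members, -0.48 (SE 0.16, adjusted P-value = 0.466). It was also among the least abundant, at 3.64, 3.59 and 2.63 CPM in control pools and at 2.03, 2.43, 2.24 and 2.12 CPM in Gata6STOP/+ pools. The groups did not overlap, and here replicate 1 was close to the other mutant pools. Without that replicate the log2 fold change was -0.45. Cox8b was 1 of 2 nuclear members of complex IV with every mutant pool below every control pool (12.5%), against 4.16% of all genes.

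Other subunit genes of complex IV come in pairs of which 1 is favoured by muscle, so the share of each form in the summed CPM of its pair was followed. Cox6a2, the heart and muscle form of subunit VIa, made up 32.9 ± 3.3% (SD, n = 3) of its pair in control and 31.7 ± 2.48% (SD, n = 4) in Gata6STOP/+ pools. Cox7a1, the heart and muscle form of subunit VIIa, made up 12.3 ± 0.656% and 10.9 ± 1.05%, and Cox8b 1.62 ± 0.229% and 1.25 ± 0.103%, with the same n. The share of Cox8b was 1.78, 1.72 and 1.36% in control pools and 1.38, 1.27, 1.13 and 1.21% in Gata6STOP/+ pools. Gata6STOP/+ replicate 1 lay just above control replicate 5, and the shares of Cox6a2 overlapped throughout. The levels of Cox6a2 and Cox7a1 themselves both had a log2 fold change of -0.29 (SE 0.15 and 0.13), and of the widely expressed forms Cox7a2 had -0.11 (SE 0.08) and Cox8a -0.19 (SE 0.09). Leaving out Gata6STOP/+ replicate 1 gave -0.16 for Cox6a2, -0.23 for Cox7a1, -0.05 for Cox7a2 and -0.10 for Cox8a.

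Cox4i2, an oxygen-responsive form of subunit IV, and Cox6b2, known from testis, were the nuclear complex IV genes with a higher mean, with log2 fold changes of 0.12 (SE 0.20) and 0.03 (SE 0.12). Cox4i2 ranged from 15.3 to 31.5 CPM among control pools alone, wider than the 20.8 to 30.0 CPM of Gata6STOP/+ pools, and it was at -0.17 without control replicate 4. Cox6b2 was at -0.05 when that pool was left out, and at -0.02 without Gata6STOP/+ replicate 4. Cox4i2 made up 5.88 ± 1.77% (SD, n = 3) of its pair in control and 6.62 ± 0.559% (SD, n = 4) in Gata6STOP/+ pools, and Cox6b2 made up 2.75 ± 0.269% and 3.16 ± 0.391% of its own. Their partners differed in the other direction, with log2 fold changes of -0.10 (SE 0.08) for Cox4i1 and -0.17 (SE 0.07) for Cox6b1.

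Complex V joins a catalytic head in the matrix to a rotor in the membrane. All 17 nuclear members were lower, 3 of them at an unadjusted P under 0.05 (3.88% of all genes), with a median log2 fold change of -0.13. Without Gata6STOP/+ replicate 1 the median was -0.06 and 11 were lower, 2 of them at that P (3.68% of all genes). Atp5k, the membrane subunit e that helps the enzyme form dimers (chr5:108433244-108434448, minus strand), had the smallest P of all members. It stood at 63.6, 63.1 and 65.6 CPM in control pools and at 45.8, 51.0, 63.9 and 48.7 CPM in Gata6STOP/+ pools. Replicate 4 of the mutant lay within the narrow control range and the others well below it. The mean was 64.1 ± 1.35 CPM (SD, n = 3) against 52.4 ± 7.99 CPM (SD, n = 4), a log2 fold change of -0.30 (SE 0.10, adjusted P-value = 0.456), and of -0.24 without replicate 1.

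The ring of c subunits, which turns as protons pass, is encoded by Atp5g1, Atp5g2 and Atp5g3, which yield the same mature protein. Atp5g2 stood at 186, 180 and 177 CPM in control pools and at 149, 168, 172 and 152 CPM in Gata6STOP/+ pools. The groups did not overlap, and the log2 fold change was -0.18 (SE 0.06, adjusted P-value = 0.517). Atp5g2 was the only 1 of the 17 nuclear members of complex V with groups apart (5.88%), a share near the 4.16% of all genes. An unlisted gene, Gm10175, holds 87.2% of the 60-base stretches of Atp5g2, so its own reads are uncertain. Atp5g1 and Atp5g3 had log2 fold changes of -0.18 (SE 0.10) and -0.13 (SE 0.10), and of -0.09 and -0.04 without Gata6STOP/+ replicate 1. Atp5g3 supplied 54.9 ± 0.811% (SD, n = 3) of the family's CPM in control and 55.8 ± 1.30% (SD, n = 4) in Gata6STOP/+ pools, and Atp5g2 22.9 ± 0.858% and 22.6 ± 1.71%, with the same n. The mutant shares without Gata6STOP/+ replicate 1 were 56.2% for Atp5g3 and 21.9% for Atp5g2.

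The catalytic head is built of Atp5a1, Atp5b, Atp5c1, Atp5d and Atp5e, with log2 fold changes of -0.07, -0.06, -0.06, -0.19 and -0.20. Leaving out Gata6STOP/+ replicate 1, Atp5c1 changed sign to 0.0064, and Atp5d and Atp5e were at -0.10 and -0.14. Atp5c1 was at -0.13 when Gata6STOP/+ replicate 3 was left out, -0.11 when control replicate 3 was and -0.02 when control replicate 4 was, and Atp5d was at -0.13 when control replicate 3 was. Atp5b, the beta subunit and the nuclear member with the highest level per length, stood at 1835, 2014 and 1780 CPM in control pools and at 1577, 1961, 1831 and 1848 CPM in Gata6STOP/+ pools. Its log2 fold change was -0.06 (SE 0.10), and 0.0042 without replicate 1. Atp5a1, the alpha subunit, had -0.07 (SE 0.09), and -0.00066 without replicate 1. For Atp5b and Atp5a1 replicate 1 was the only mutant pool below the control range.

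Cox7a2l and Ndufa4l2 belong to no complex here but are part of the counts, medians and sums of the 83 nuclear members. Cox7a2l, which helps complexes III and IV join in supercomplexes, had a log2 fold change of -0.10 (SE 0.06) and stood at 169, 164 and 170 CPM in control against 155, 164, 160 and 148 CPM in Gata6STOP/+ pools. Ndufa4l2, a hypoxia-induced relative of the complex IV subunit Ndufa4, had -0.22 (SE 0.22) and stood at 17.7, 9.01 and 19.3 CPM in control against 10.6, 12.1, 12.9 and 14.4 CPM in Gata6STOP/+ pools. The control spread of Ndufa4l2 covered all of its mutant pools, and its log2 fold change ranged from -0.55, when control replicate 4 was left out, to -0.03, when control replicate 5 was. Ndufa4 itself had a log2 fold change of -0.10 (SE 0.07), and of -0.06 without Gata6STOP/+ replicate 1.

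Mitochondrial DNA is transcribed from both strands into long precursors that are then processed, so its messenger RNAs start from shared transcripts. All but mt-Nd6 of the genes here are read from the same strand. Among the complex I genes, mt-Nd3, a membrane subunit (chrM:9459-9806, plus strand), had the smallest P. It stood at 165, 229 and 161 CPM in control pools and at 216, 261, 208 and 256 CPM in Gata6STOP/+ pools. Control replicate 4 lay among the mutant pools. The log2 fold change was 0.36 (SE 0.13, adjusted P-value = 0.497).

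The other membrane subunits of complex I on that strand also had higher means in Gata6STOP/+ pools. Log2 fold changes were 0.24 (SE 0.11) for mt-Nd2, 0.22 (SE 0.11) for mt-Nd5, 0.18 (SE 0.11) for mt-Nd4, 0.18 (SE 0.08) for mt-Nd4l and 0.17 (SE 0.12) for mt-Nd1. These sizes turned on single control pools. When control replicate 5 was left out mt-Nd1 was at 0.10, mt-Nd4 at 0.12 and mt-Nd5 at 0.15, and when control replicate 3 was mt-Nd2 was at 0.14. Without control replicate 4, mt-Nd4l was at 0.09, mt-Nd1 at 0.28, mt-Nd4 at 0.30 and mt-Nd2 at 0.37. For mt-Nd2, 3 of the 4 mutant pools lay above all controls, at 1228, 1676 and 1338 CPM in control and 1760, 1698, 1676 and 1498 CPM in Gata6STOP/+ pools. mt-Nd6, the subunit gene on the opposite strand, lay on the other side of 0. It stood at 55.4, 55.4 and 68.7 CPM in control and at 50.1, 46.7, 60.5 and 55.7 CPM in Gata6STOP/+ pools, with a log2 fold change of -0.17 (SE 0.10, adjusted P-value = 0.736), and of -0.06 when control replicate 5 was left out.

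For the other complexes, mt-Cytb, the cytochrome b of complex III, stood at 3897, 4659 and 3991 CPM in control and at 4581, 4952, 4553 and 4116 CPM in Gata6STOP/+ pools, with a log2 fold change of 0.12 (SE 0.11). mt-Co1, the catalytic subunit of complex IV and the most abundant member, stood at 9016, 10822 and 9664 CPM in control and at 10752, 10970, 10339 and 10036 CPM in Gata6STOP/+ pools, with 0.10 (SE 0.14). In both, control replicate 4 lay within the range of the mutant pools. mt-Co2, the subunit that takes electrons from cytochrome c, had 0.22 (SE 0.12). When control replicate 3 was left out mt-Cytb was at 0.07, mt-Co1 at 0.04 and mt-Co2 at 0.11. Without control replicate 4 they were at 0.20, 0.17 and 0.37. The proton channel gene mt-Atp6 had 0.25 (SE 0.17), and -0.01 without control replicate 3. Its overlapping neighbour mt-Atp8 had -0.09 (SE 0.16), and 0.0027 without Gata6STOP/+ replicate 5. The median log2 fold change of the 13 genes was 0.12 when control replicate 3 was left out and 0.12 when control replicate 5 was, but 0.30 when control replicate 4 was left out. It was 0.17 without Gata6STOP/+ replicate 1.

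Several members share sequence with other loci. Of the 96 members, 12 have between them 14 listed near-identical copies, each holding at least 20% of the 60-base stretches of the member's transcript. For 6 mitochondrially encoded members the copies lie side by side on chromosome 1 (chr1:24611535-24615565, minus strand), in a nuclear insert of mitochondrial DNA, and they hold 99.5% of the stretches of mt-Atp6 and 99.9% of those of mt-Co3. The remaining pseudogenes and relatives copy Atp5l, Cox7c, Ndufb4, Ndufb9, Ndufs5 and Uqcrb. How a read that fits both places was divided cannot be read from the table, so sums with the copies were also taken, an alternative chosen after seeing the data.

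mt-Co3 is a core subunit of complex IV. Alone it stood at 194, 359 and 21.8 CPM in control pools and at 143, 218, 183 and 200 CPM in Gata6STOP/+ pools. The control pools covered the mutant pools and more. The mean was 192 ± 169 CPM (SD, n = 3) in control and 186 ± 32.0 CPM (SD, n = 4) in Gata6STOP/+ pools, so that the mean CPM was slightly lower while the log2 fold change was 0.67 (SE 0.70). It was -0.52 without control replicate 5 and -0.04 by DESeq2. Its copy Gm28437 held 3522, 4035 and 3966 CPM in control and 3984, 4466, 4175 and 3839 CPM in Gata6STOP/+ pools. Summed with that copy, mt-Co3 stood at 3716, 4395 and 3988 CPM in control and at 4127, 4683, 4358 and 4039 CPM in Gata6STOP/+ pools, and the log2 fold change was 0.09 (SE 0.11). The sum does not depend on how shared reads were divided between the 2 loci, but it cannot tell them apart. The source of the low value of mt-Co3 alone in control replicate 5 was not tested.

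**Figure D3:**
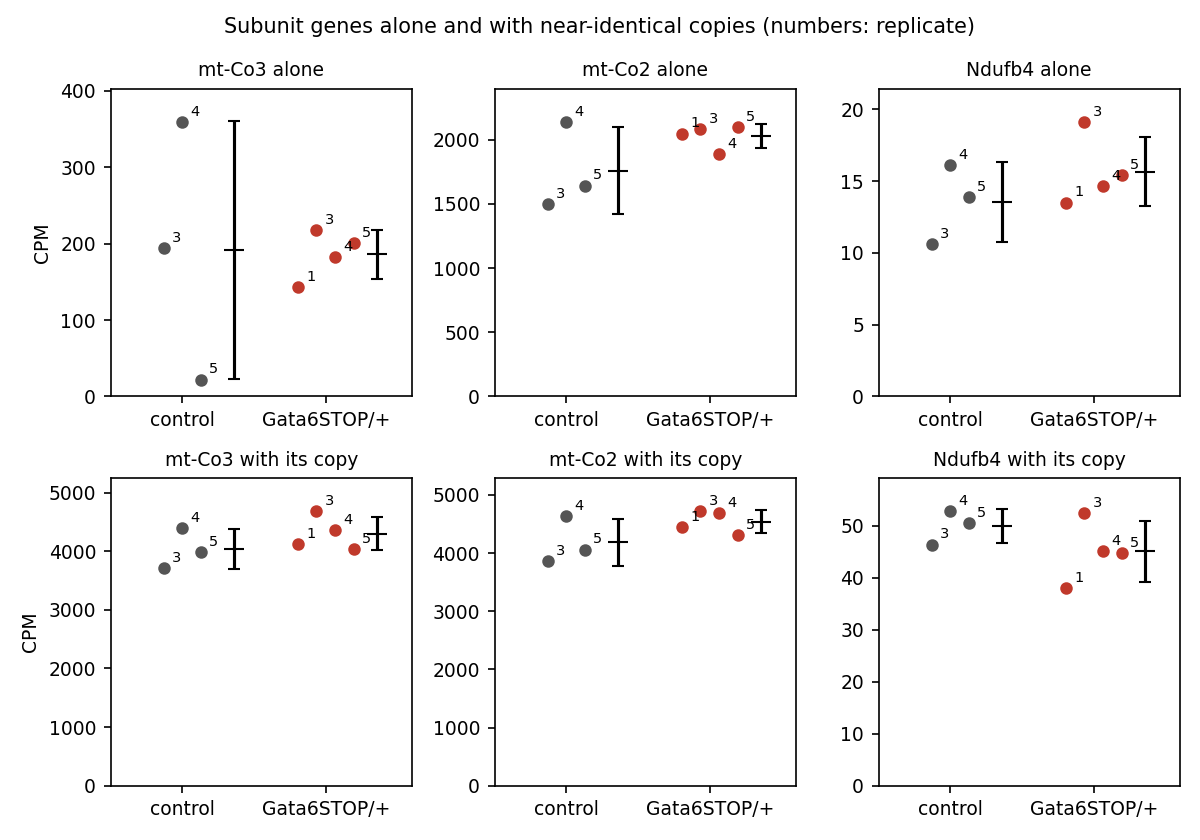
CPM of mt-Co3, mt-Co2 and Ndufb4 in each pool, alone (top) and summed with the near-identical copy of each (bottom), with replicate numbers; horizontal and vertical bars give mean and SD of 3 control and 4 Gata6STOP/+ pools. More of each sum is listed under the copy than under the gene. For mt-Co3 control replicate 5 is at 21.8 CPM alone, and its copy is at 3966 CPM in that pool.

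The first 60 bases of mt-Co3 (chrM:8607-8666, plus strand) and the matching bases of Gm28437 (chr1:24613912-24613971, minus strand), both of GRCm38, are printed 5′ to 3′ to show that a read from this stretch fits both.
mt-Co3: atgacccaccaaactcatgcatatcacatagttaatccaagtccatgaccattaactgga
Gm28437: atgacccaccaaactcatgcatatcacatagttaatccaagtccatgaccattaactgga

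With copies added, mt-Atp6 had a log2 fold change of 0.21 (SE 0.12), mt-Co2 0.12 (SE 0.11), mt-Nd3 0.27 (SE 0.11), mt-Nd4 0.23 (SE 0.12) and mt-Nd4l 0.07 (SE 0.11). All were above 0. Among the nuclear members, log2 fold changes were -0.19 alone and -0.12 (SE 0.08) with copies for Atp5l, -0.19 and -0.14 (SE 0.07) for Ndufs5, -0.13 and -0.10 (SE 0.07) for Cox7c, -0.10 and -0.13 (SE 0.07) for Ndufb9, and -0.12 and -0.09 (SE 0.08) for Uqcrb. Alone and without Gata6STOP/+ replicate 1, Cox7c was at -0.08, Ndufb9 at -0.07 and Uqcrb at -0.06, and Uqcrb was at -0.07 when control replicate 4 was left out and at -0.20 when control replicate 3 was. With copies added, 14 members were lower at an unadjusted P under 0.05, in place of 16, against 569 of the 14718 genes then fitted (3.87%). The median of the mitochondrial members was then 0.12, and their sum differed by 10.2% as before. The ratio of mitochondrial to nuclear sums was 2.32, 2.74 and 2.48 in control pools and 3.47, 2.87, 2.88 and 2.81 in Gata6STOP/+ pools, with no overlap between groups. It comes from the same pools and members as the ratio without copies, so it is not a separate result. The mitochondrial ribosomal RNAs mt-Rnr1 and mt-Rnr2, read from the same strand, had log2 fold changes of 0.02 (SE 0.09) and 0.11 (SE 0.07). Without Gata6STOP/+ replicate 1 the lower of these 2 values was 0.10 and the higher 0.12. Leaving out Gata6STOP/+ replicate 3, Gata6STOP/+ replicate 4 or control replicate 4 put 1 of the 2 genes below 0.

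The lower nuclear levels were not evenly spread over the pools. The median deviation of the 83 nuclear members from the control mean, on the log2 scale, was -0.30 in Gata6STOP/+ replicate 1, 0.0041 in replicate 3, -0.04 in replicate 4 and -0.17 in replicate 5. Subunit genes are short, with a median transcript of 838 nt against 3117 nt for the other 13249 listed protein-coding genes. The 350 other protein-coding genes of at most 800 nt had median deviations of -0.18, -0.0092, 0.01 and -0.15 in the same pools. The pools rank the same way at their low end, with replicates 1 and 5 below replicates 3 and 4. Only 40 of the 83 nuclear members had a transcript of at most 800 nt, so the 2 sets were not matched in length.

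By length, the median log2 fold change of other protein-coding genes was -0.09 up to 600 nt, -0.07 from 601 to 800 nt, -0.06 from 801 to 1200 nt, -0.03 from 1201 to 2000 nt, -0.01 from 2001 to 4000 nt and 0.03 above 4000 nt. The nuclear members of the same classes had medians of -0.18, -0.11, -0.14, -0.10, -0.05 and -0.16, each below that of the other genes, with 20, 20, 18, 17, 6 and 2 members. The 2 members above 4000 nt were Atp5g1 (4715 nt) and Ndufb2 (4371 nt). Lengths are those of the longest principal transcript, and which transcripts the pools held was not examined, so the class of a gene is uncertain. Without Gata6STOP/+ replicate 1 the members of the 6 classes had -0.13, -0.05, -0.09, -0.04, 0.0083 and -0.07, and the other genes -0.05, -0.04, -0.03, -0.02, -0.0027 and 0.02, so members of 2001 to 4000 nt then lay above the others. The classes were chosen after seeing the data, and the part of length in the subunit levels was not tested.

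Ribosomal protein genes, also short and abundant, had lower levels too. Of 84 cytosolic ribosomal protein genes, 78 were lower, 13 of them (15.5%) at an unadjusted P under 0.05, against 3.88% of all genes, with a median log2 fold change of -0.09. The median without Gata6STOP/+ replicate 1 was -0.07, and 3 (3.57%) were lower at that P, just below the 3.68% of all genes. Their sums were 35128, 33648 and 36874 CPM in control pools and 31541, 34184, 34654 and 32030 CPM in Gata6STOP/+ pools. Replicate 1 was the lowest of all pools here as well, with replicate 5 next. Rplp0, the most abundant, had -0.08 (SE 0.08), whereas Rpl6l, with the smallest P, stood at 0.0160 ± 0.0277 CPM (SD, n = 3) in control and 2.37 ± 2.36 CPM (SD, n = 4) in Gata6STOP/+ pools. Of 78 mitochondrial ribosomal protein genes, which build the ribosome that translates the mt genes, 60 were lower, with a median of -0.06, and of -0.02 without replicate 1, and their sum too was lowest in replicate 1. Their median was -0.09 without Gata6STOP/+ replicate 3. Among them Mrpl14 had -0.27 (SE 0.11) and Mrpl12 -0.12 (SE 0.09).

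Other lists hold the genes that build or feed the complexes. Of 50 assembly factors, 27 were lower, with a median log2 fold change of -0.02, of 0.03 without Gata6STOP/+ replicate 1 and of 0.01 without control replicate 4. Without Gata6STOP/+ replicate 3 the median was -0.07 and 38 were lower. Pet100, which helps assemble complex IV, had -0.32 (SE 0.13, adjusted P-value = 0.573), and Coa5, the most abundant, had 0.07 (SE 0.07). Of 17 electron carriers and enzymes of ubiquinone synthesis, 12 were lower, with a median of -0.07, of -0.01 without replicate 1 and of -0.0071 when control replicate 4 was left out. Their median was -0.12 without control replicate 5. Cycs, the cytochrome c that links complexes III and IV, had -0.15 (SE 0.08), and Etfb, of the electron transfer flavoprotein, -0.18 (SE 0.08). Of 18 genes of pyruvate dehydrogenase and the citric acid cycle, 16 were lower, with a median of -0.08, of -0.03 without replicate 1 and of -0.0073 when control replicate 4 was left out. Their median was -0.14 without Gata6STOP/+ replicate 3. Idh3g and Idh2, which encode isocitrate dehydrogenases, had -0.16 (SE 0.06) and -0.15 (SE 0.09). The sums of all 3 lists were lowest in Gata6STOP/+ replicate 1.

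Further lists hold genes that act on mitochondrial DNA and on subunit genes. Of 26 genes for mitochondrial transcription, replication and RNA handling, 10 were lower, with a median log2 fold change of 0.03, and of -0.0093 when control replicate 3 was left out. Their sum was lowest in Gata6STOP/+ replicate 1. Lrpprc, which stabilises mitochondrial messenger RNAs, had 0.04 (SE 0.07), and Fastkd2, which binds mitochondrial RNA, 0.17 (SE 0.08). Of 13 listed nuclear regulators of respiration, among them Nrf1, Gabpa and Ppargc1a, 4 were lower, with a median of 0.03. Their median was 0.06 without control replicate 4 and 0.01 without Gata6STOP/+ replicate 5. Hif1a, the oxygen-regulated factor, was both the most abundant of them and the one with the smallest P, at 278, 313 and 298 CPM in control and 320, 354, 334 and 340 CPM in Gata6STOP/+ pools. Its groups did not overlap, with a log2 fold change of 0.19 (SE 0.06, adjusted P-value = 0.466).

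Markers of cardiomyocytes, cells rich in mitochondria, were read beside the subunits. The 25 cardiomyocyte markers, all listed, summed to 33413, 33521 and 30334 CPM in control pools and to 24097, 34773, 31172 and 30585 CPM in Gata6STOP/+ pools. Replicate 1, the pool with the lowest sum of nuclear members, was also the lowest here, and the other mutant pools lay within or above the control range. Of these markers 20 were lower, with a median log2 fold change of -0.13, and 14 were lower with a median of -0.01 without replicate 1. Without Gata6STOP/+ replicate 3 the median was -0.23 and 22 were lower. Myh7, the slow myosin heavy chain and the most abundant, had -0.07 (SE 0.14), and Mb, myoglobin, with the smallest P, had -0.71 (SE 0.21, adjusted P-value = 0.385). The part of myocardial content in the subunit levels was not tested.

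Marker sums of other cell types of the OFT were not lowest in that pool. Smooth muscle markers summed to 3046, 2675 and 2580 CPM in control and to 2687, 3373, 3547 and 2810 CPM in Gata6STOP/+ pools, led by Acta2, with a median log2 fold change of 0.15 over 6 genes, 0.08 without control replicate 5, and Smtn at -0.15 (SE 0.06). Cushion mesenchyme markers, led by Col3a1, summed to 7992, 6858 and 7584 CPM in control and to 7951, 5577, 6436 and 7039 CPM in Gata6STOP/+ pools, with a median of -0.10 over 12 genes, -0.02 when control replicate 3 was left out, and Pdgfra at -0.50 (SE 0.14). The cushion median was -0.18 without control replicate 4. In both the smooth muscle and the cushion list replicate 1 was not the extreme of all pools. Endothelial and endocardial markers, led by Tek, summed to 919, 1124 and 822 CPM in control and to 1046, 902, 1100 and 974 CPM in Gata6STOP/+ pools. Their median was 0.08 over 10 genes, with Erg at 0.24 (SE 0.09). It was 0.02 when control replicate 5 was left out and 0.19 when control replicate 4 was.

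Erythroid markers, led by the embryonic globin Hbb-y, summed to 3007, 2550 and 6128 CPM in control pools and to 2952, 4339, 4752 and 7828 CPM in Gata6STOP/+ pools. All 11 were higher, with a median log2 fold change of 0.39. It was 0.61 without replicate 1, 0.13 without Gata6STOP/+ replicate 5, 0.14 when control replicate 4 was left out and 0.75 when control replicate 5 was. The replicates numbered 5 held most in each group. Median log2 fold changes were -0.24 for 5 neural crest and glial markers (Erbb3, most abundant and of smallest P, -0.39, SE 0.12), -0.05 for 6 neuronal markers (Tubb3, most abundant, -0.39, SE 0.17; Stmn2, of smallest P, 0.40, SE 0.11), 0.04 for 6 epicardial and mesothelial markers (Upk3b, most abundant, 0.05, SE 0.11; Msln, of smallest P, -0.60, SE 0.22) and -0.14 for 9 macrophage markers (Csf1r, most abundant, -0.14, SE 0.22; Adgre1, of smallest P, -0.41, SE 0.29). The mean level was under 5 CPM for 3 of the 5 neural crest and glial markers and 4 of the 6 neuronal markers. The same held for 1 of the 6 epicardial and mesothelial and 3 of the 9 macrophage markers. These small lists also turned on single pools. The macrophage median was -0.37 without Gata6STOP/+ replicate 3, and the neuronal median -0.16 without Gata6STOP/+ replicate 5. The epicardial median was 0.14 without Gata6STOP/+ replicate 4. The neuronal median was 0.0052 and the macrophage median 0.02 when control replicate 5 was left out, the neuronal median was 0.0093 without Gata6STOP/+ replicate 3, and the epicardial median was -0.05 when control replicate 3, Gata6STOP/+ replicate 3 or Gata6STOP/+ replicate 5 was left out. Of 10 markers of pharyngeal and foregut epithelium only Krt8 and Krt18 were listed, with a median of 0.11, or -0.07 when control replicate 4 was left out, and Epcam, Cdh1, Nkx2-1, Foxa1, Foxa2, Shh, Pax9 and Krt5 were not. Foxd3 and Fabp7 were not listed either. Genes were listed only if they reached 1 CPM in 3 or more pools, so no listed marker could be at 0 in every pool.

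Promoters of nuclear members were read for motifs of factors long tied to respiratory genes. RefSeq promoter sequences (GRCm38.p6, 250 bases before to 50 after the start) matched 67 of the 83 nuclear members. On either strand, the NRF1 motif (GCGCA, any base, then GCGC) was found in 17 (25.4%), the ETS motif CCGGAAG, of the family of GABPA, in 17 (25.4%), and the YY1 motif AAGATGGC in 10 (14.9%). The same motifs were found in 11.05%, 19.2% and 5.02% of the promoters of listed genes, and in 5.19%, 9.93% and 3.19% of all promoters of that length. They were found in 9.84%, 41.0% and 11.5% of promoters of cytosolic ribosomal protein genes. For mitochondrial ribosomal protein genes the shares were 18.8%, 37.7% and 17.4%. Of the 67, 38 held at least 1 motif and 29 held none. The median log2 fold change was -0.14 with and -0.13 without the NRF1 motif, -0.17 with and -0.13 without the ETS motif, and -0.11 with and -0.13 without the YY1 motif.

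Promoters of members with small P are printed 5′ to 3′ on the strand of the gene, with motif matches on either strand in capitals, to show a gene with the NRF1 and ETS motifs (Atp5k, chr5:108434350-108434649, minus strand, and Cox6a1, chr5:115348909-115349208, minus strand), with the YY1 motif (Ndufs7, chr10:80249199-80249498, plus strand) and with none of the 3 (Uqcr10, chr11:4704295-4704594, minus strand). A match is a string of letters, not a shown binding site. In Atp5k and Cox6a1 the ETS motif is read on the opposite strand, as CTTCCGG.
Atp5k: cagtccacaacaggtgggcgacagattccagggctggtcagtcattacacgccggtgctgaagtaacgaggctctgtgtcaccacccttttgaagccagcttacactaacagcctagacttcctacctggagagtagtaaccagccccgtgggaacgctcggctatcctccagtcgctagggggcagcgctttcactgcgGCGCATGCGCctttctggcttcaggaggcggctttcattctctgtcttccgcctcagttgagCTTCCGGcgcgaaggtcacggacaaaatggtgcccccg
Cox6a1: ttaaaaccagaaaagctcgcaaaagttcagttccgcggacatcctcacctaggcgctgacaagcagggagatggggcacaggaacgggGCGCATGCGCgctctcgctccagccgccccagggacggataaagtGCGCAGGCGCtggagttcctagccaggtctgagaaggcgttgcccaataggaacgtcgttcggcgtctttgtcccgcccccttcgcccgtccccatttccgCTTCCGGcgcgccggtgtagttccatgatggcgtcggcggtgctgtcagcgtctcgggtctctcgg
Ndufs7: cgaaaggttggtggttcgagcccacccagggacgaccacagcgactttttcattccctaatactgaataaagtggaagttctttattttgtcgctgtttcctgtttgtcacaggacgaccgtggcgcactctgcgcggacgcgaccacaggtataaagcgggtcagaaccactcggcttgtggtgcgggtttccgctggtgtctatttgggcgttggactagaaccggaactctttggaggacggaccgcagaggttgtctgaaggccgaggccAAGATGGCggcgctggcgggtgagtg
Uqcr10: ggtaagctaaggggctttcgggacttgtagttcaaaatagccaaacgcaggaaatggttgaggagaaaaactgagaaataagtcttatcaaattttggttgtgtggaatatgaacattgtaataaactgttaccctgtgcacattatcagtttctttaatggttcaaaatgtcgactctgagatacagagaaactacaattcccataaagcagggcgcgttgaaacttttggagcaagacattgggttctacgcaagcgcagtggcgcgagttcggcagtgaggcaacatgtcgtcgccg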

How the data were processed

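PolyA RNA of OFT pools was sequenced by the authors in single-end reads of 60 bases from stranded libraries, trimmed with Cutadapt and counted per gene with RSEM on GRCm38. The deposited values are CPM on TMM-adjusted library sizes (edgeR, by the authors) for genes that reached 1 CPM in 3 or more pools. From the values, whole reads were recovered in all 7 pools (tolerance 0.01), which gave the depths, and 0 per-sample columns were left unused. Whether counting used the strand is not stated in the labels.

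Differences were fitted across all 14732 genes with limma 3.58.1 (R 4.3.3) on log2(CPM + 0.5) with a mean-variance trend and no block, 3 control against 4 Gata6STOP/+ pools, two-sided, with Benjamini-Hochberg adjustment over all genes and a threshold of 0.05. Alternatives were edgeR 4.0.16 (likelihood ratio and quasi-likelihood) and DESeq2 1.42.0 on recovered reads, median-of-ratios scaling, constants of 0.1 and 2, a mean of at least 5 CPM, a replicate block, and leaving out each pool. Adding listed near-identical copies to their member, the alternatives for the summed CPM, and leaving out pools for medians of mitochondrial complexes and other lists, were chosen after seeing the data. Fits were tested on simulated data. Sums, shares, lengths and motifs were computed with Python 3.11.15, pandas 2.3.3 and NumPy 2.4.6. Transcript lengths are of the longest principal transcript in GENCODE M21, which holds 14723 of the listed identifiers.

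Genes are named by rule: the 2 most abundant nuclear members of each complex, all mitochondrially encoded members, the 12 members with the smallest P, tissue isoforms, members with a higher mean in Gata6STOP/+ pools, members set apart as not subunits, for each other list the gene with the smallest P and the most abundant gene, and Gata6. Results for some genes that meet the rule or belong to a list are not reported here. Genes named beyond these (copies, members with copies, Sdhb, the catalytic head of complex V, examples of a list) were chosen after their values were seen. Ndufa4 was counted with complex IV. Members and lists were chosen with earlier results of these data known, so no test was made over a list.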

Additional observations from a re-analysis of the deposited data

Results flagged for a closer look

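The share of Ndufa4l2 in the summed CPM of Ndufa4 and Ndufa4l2 was 7.08, 7.07, 7.23 and 8.95% in Gata6STOP/+ replicates 1, 3, 4 and 5, so that replicate 5 stood apart from the others. The gap from replicate 5 to its nearest neighbour was 0.914 of the whole range of the 4 pools, past Dixon's limit. The share of Ndufa4, the remainder of the same sum, gives the same 0.914 (92.9, 92.9, 92.8 and 91.0%). These were 2 of 93 values checked in this way, and chance flags about 1 in 20. Control pools, at 10.3, 5.09 and 10.3% for Ndufa4l2 in replicates 3, 4 and 5, spread more widely than that. The cause was not tested.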

How the results depend on the processing

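No member passed the adjusted threshold under any alternative. Genes called (0 with limma, 1187 at an unadjusted P under 0.05) were 88 by DESeq2, 105 by the edgeR likelihood ratio test, 0 by edgeR quasi-likelihood, 1 with a constant of 0.1, 14 with a replicate block and 13 with the block in edgeR, and 0 to 13 when leaving out a pool (1 without Gata6STOP/+ replicate 1, 2 without Gata6STOP/+ replicate 3, 13 without control replicate 4). Paired deviations of same-numbered pools had r = -0.0465, -0.266 and -0.0175 across genes, which are not independent replicates, so the block served only as an alternative. In it, Gata6STOP/+ replicate 1 has no partner, and the fold changes of the block fit equal those without that pool. Members lower at an unadjusted P under 0.05 (16) were 3 of 96 in both block fits (3.08 and 3.05% of all genes) and 6 to 35 when leaving out a pool; members higher (1) were 3 by DESeq2 (3.83% of all genes), 2 by the likelihood ratio test (3.91%) and 1 to 9 when leaving out a pool. Members lower (82) ranged from 69 to 83. Leaving out a pool, medians ranged from -0.18 to -0.06 for nuclear and from 0.12 to 0.30 for mitochondrial members, from -0.17 to -0.06, -0.12 to 0.00995, -0.20 to -0.08, -0.17 to -0.07 and -0.19 to -0.06 for nuclear complexes I to V, and sums from -10.1 to -3.13% and from 5.66 to 18.6%. Gata6 ranged from -0.42 to -0.27. In the block fits, complex II was at 0.00995 (edgeR 0.0098), Atp5b at 0.0042 (0.0042), Ndufs1 at 0.0050 (0.0049), Sdha at 0.028 (0.028) and Sdhd at 0.013 (0.013). Ndufb4 was at -0.15 with its copy added, and mt-Co3 at -0.044 by DESeq2, -0.043 by the likelihood ratio test and -0.0499 by quasi-likelihood. Leaving out a pool, signs also changed for Atp5b (-0.10 to 0.0042), Cox4i2 (-0.17 to 0.34), Cox6b2 (-0.050 to 0.081), Ndufs1 (-0.087 to 0.024), Sdha (-0.11 to 0.028), Sdhd (-0.10 to 0.013), mt-Atp6 (-0.010 to 0.43), mt-Atp8 (-0.22 to 0.0027) and mt-Co3 (-0.52 to 1.48). Atp5c1, named beyond the rule, changed sign as well (-0.13 to 0.0064). Of 781 values of 46 named members under alternatives, 24 changed sign, in 10 members. Except for the fewer pools of a fit, the causes were not tested. Counting Ndufa4 with complex I, or leaving it out, changed no direction. There were 3 against 4 pools and the mutant pools were uneven, and how small a difference these data can show is not given here.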
